A study of Mus musculus with 114 samples.

Results

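The 100 genes described here were lower in adipocytes of high fat diet (HFD) mice than of chow diet (CD) mice after 8 weeks, and higher after 34 weeks. They were taken from 10343 genes with a mean above 2 on the log2(CPM + 1) scale, where CPM is counts per 1000000 reads on genes and 1 is the pseudocount. The symbols starting with Srsf, Hnrnp, Snrp, Sf3 and Prpf, which are splicing factor families, were left out. A total of 1904 genes (18.4%) were below 0 for HFD minus CD at 8 weeks and above 0 at 34 weeks. Each gene was ranked by the smaller in size of its 2 differences, and the leading 100 were kept. The genes were thus chosen by their HFD minus CD differences at 8 and 34 weeks. Because the 8 and 34 week values chose these genes, their differences at those times are a description and were not tested. The 20 week mice took no part in the choice of the pattern, beyond the limit on the mean level, and are the measure that could be tested. The standard errors of the main test were pooled over all mice, so the spread of the 8 and 34 week mice entered it.

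RNA came from adipocytes of male C57BL/6J mice, that is, from the buoyant fraction left when perigonadal white adipose tissue (PGWAT) is digested with collagenase. The mice were fed CD or an HFD with 60% of energy from fat for 8, 20 or 34 weeks from 6 weeks of age, with 6 mice in each group and 8 in the 34 week CD group, or 38 mice in all. Each mouse had 1 value per gene, merged from 3 technical replicates, and all mice shared strain, sex, depot and a fast before collection. Each mouse had between 9275711 and 15480388 reads assigned to genes, and at 8 weeks the diets did not overlap in depth (10562845 to 12611013 in CD and 13201234 to 15480388 in HFD).

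Adipocytes are known both for storing lipid and for answering to inflammatory, oxidative and growth factor signals. Cells respond to microbial and fatty ligands through Toll-like receptors and NF-kB, to interferon through IRF factors and to electrophiles through NRF2, the factor encoded by Nfe2l2. TGF-beta receptors pass signals that shape the extracellular matrix, and in obese fat these pathways are active in adipocytes and in the immune and stromal cells among them. The 100 genes hold members of each of these pathways, in groups of role that were drawn up after the genes were known. Besides genes named by a fixed rule, others are named as examples of these groups and were chosen after their values were seen.

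The mean of the 100 genes on the log2(CPM + 1) scale was 5.83 ± 0.18 (SD, n = 6) in CD and 5.01 ± 0.17 (n = 6) in HFD mice at 8 weeks. At 20 weeks it was 5.91 ± 0.15 (n = 6) in CD and 5.98 ± 0.08 (n = 6) in HFD mice. At 34 weeks it was 4.62 ± 0.50 (n = 8) in CD and 5.44 ± 0.40 (n = 6) in HFD mice. The 34 week CD mice were the lowest group for 79 of the 100 genes and the 8 week HFD mice for 20. The choice of the genes sets much of this order, since a gene lower with HFD at 8 weeks and higher at 34 weeks cannot be lowest in 8 week CD or 34 week HFD mice. Over all genes tested, with no such limit, 34 week CD and 8 week HFD mice were the lowest for 14.8% and 7.38%, and nothing is read from the difference. The highest group was 8 week CD for 32 genes, 20 week HFD for 32, 20 week CD for 26 and 34 week HFD for 10. The sign of the difference at 34 weeks thus lay beside levels that were below those of the 20 week mice in both diets for most of the genes.

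**Figure D1:**
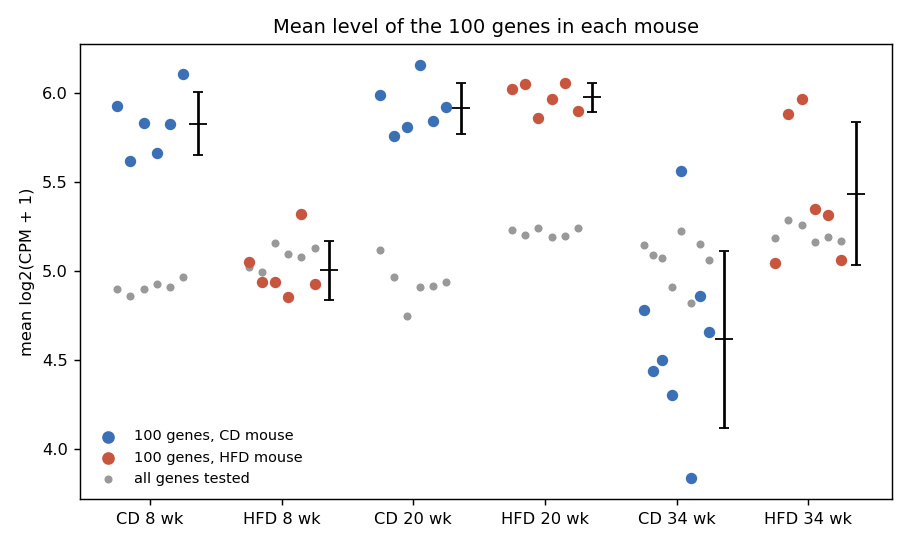
Mean log2(CPM + 1) of the 100 genes in each mouse (blue CD, red HFD) by diet and weeks on diet, with the mean over all 10343 genes tested in grey and the group mean ± SD in black. The 8 week HFD and 34 week CD mice sit lowest, and the 34 week mice spread most, from 3.83 to 5.56 in CD and from 5.04 to 5.97 in HFD.

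Single mice at 34 weeks stood apart from their groups across most of the genes. CD mouse 5 was above its group's mean for 96 of the 100 genes, and CD mouse 6 for 8. HFD mice 2 and 3 were above theirs for 96 and 90 genes, and HFD mice 1 and 6 for 13 each. Marker sums differed between these mice, but over all 34 week mice their order did not always follow that of the 100 genes. A list of 14 macrophage genes (12 were summed, leaving out Cd14, which is among the 100 genes, and 1 that was not analysed here) summed to 12689 CPM in CD mouse 5, against 1191 to 8052 CPM in the other CD mice, the lowest being mouse 6. In HFD mice 2 and 3 the sum was 11520 and 14104 CPM, and in HFD mice 1 and 6 it was 7483 and 5227 CPM. HFD mouse 4 had the highest sum, 15577 CPM, with 44 of the 100 genes above the group's mean. CD mouse 2 had a sum of 8052 CPM with 30 genes above its group's mean. CD mice 1 and 7 had lower sums, 5103 and 3697 CPM, with 76 and 78 genes above. The 12 adipocyte markers ran the other way, with 32063 CPM in CD mouse 5, 66577 CPM in CD mouse 6 and 18484 to 43149 CPM in HFD mice. The part of other cells in the 34 week differences was not tested. In such bulk samples a change in the number of cells of a type cannot be told apart from a change in RNA per cell. Without CD mouse 5 the rule kept 85 of the 100 genes, and the median difference of the 100 at 34 weeks was 0.87 in place of 0.75.

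In the fraction as a whole, the macrophage sum was 274 to 1573 CPM (median 591) in 8 week CD and 1115 to 3244 CPM (1949) in 8 week HFD mice. At 20 weeks it was 443 to 3351 CPM (1219) in CD and 4478 to 8607 CPM (6532) in HFD mice. Adipocyte markers were high in every mouse, from 18484 to 71599 CPM, as the label of the cells implies. In 20 week mice their median sum was 61839 CPM in CD and 30561 CPM in HFD, and 9 of the 12 fell and 1 rose. Progenitor and fibroblast markers (11 genes) summed to 290 to 855 CPM (median 507) in CD and 1223 to 2500 CPM (2093) in HFD mice at 20 weeks, and 10 of 10 tested rose (8 with TMM). Endothelial markers (9 genes) summed to 56.7 to 215 CPM (152) in CD and 196 to 534 CPM (349) in HFD mice, and 7 of 9 rose (5 with TMM). Of 13 macrophage markers tested, Cd14 included, 10 rose and 1 fell. Over all genes tested 38.3% rose and 18.7% fell at 20 weeks (26.2% and 32.5% with TMM). The part of these cells in the 20 week differences was not tested beyond the macrophage covariate. The 11 T and NK cell markers summed to at most 5.31 CPM in any mouse. The median macrophage sum was higher with HFD at 8 weeks, and its part in the 8 week differences was not tested.

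**Figure D2:**
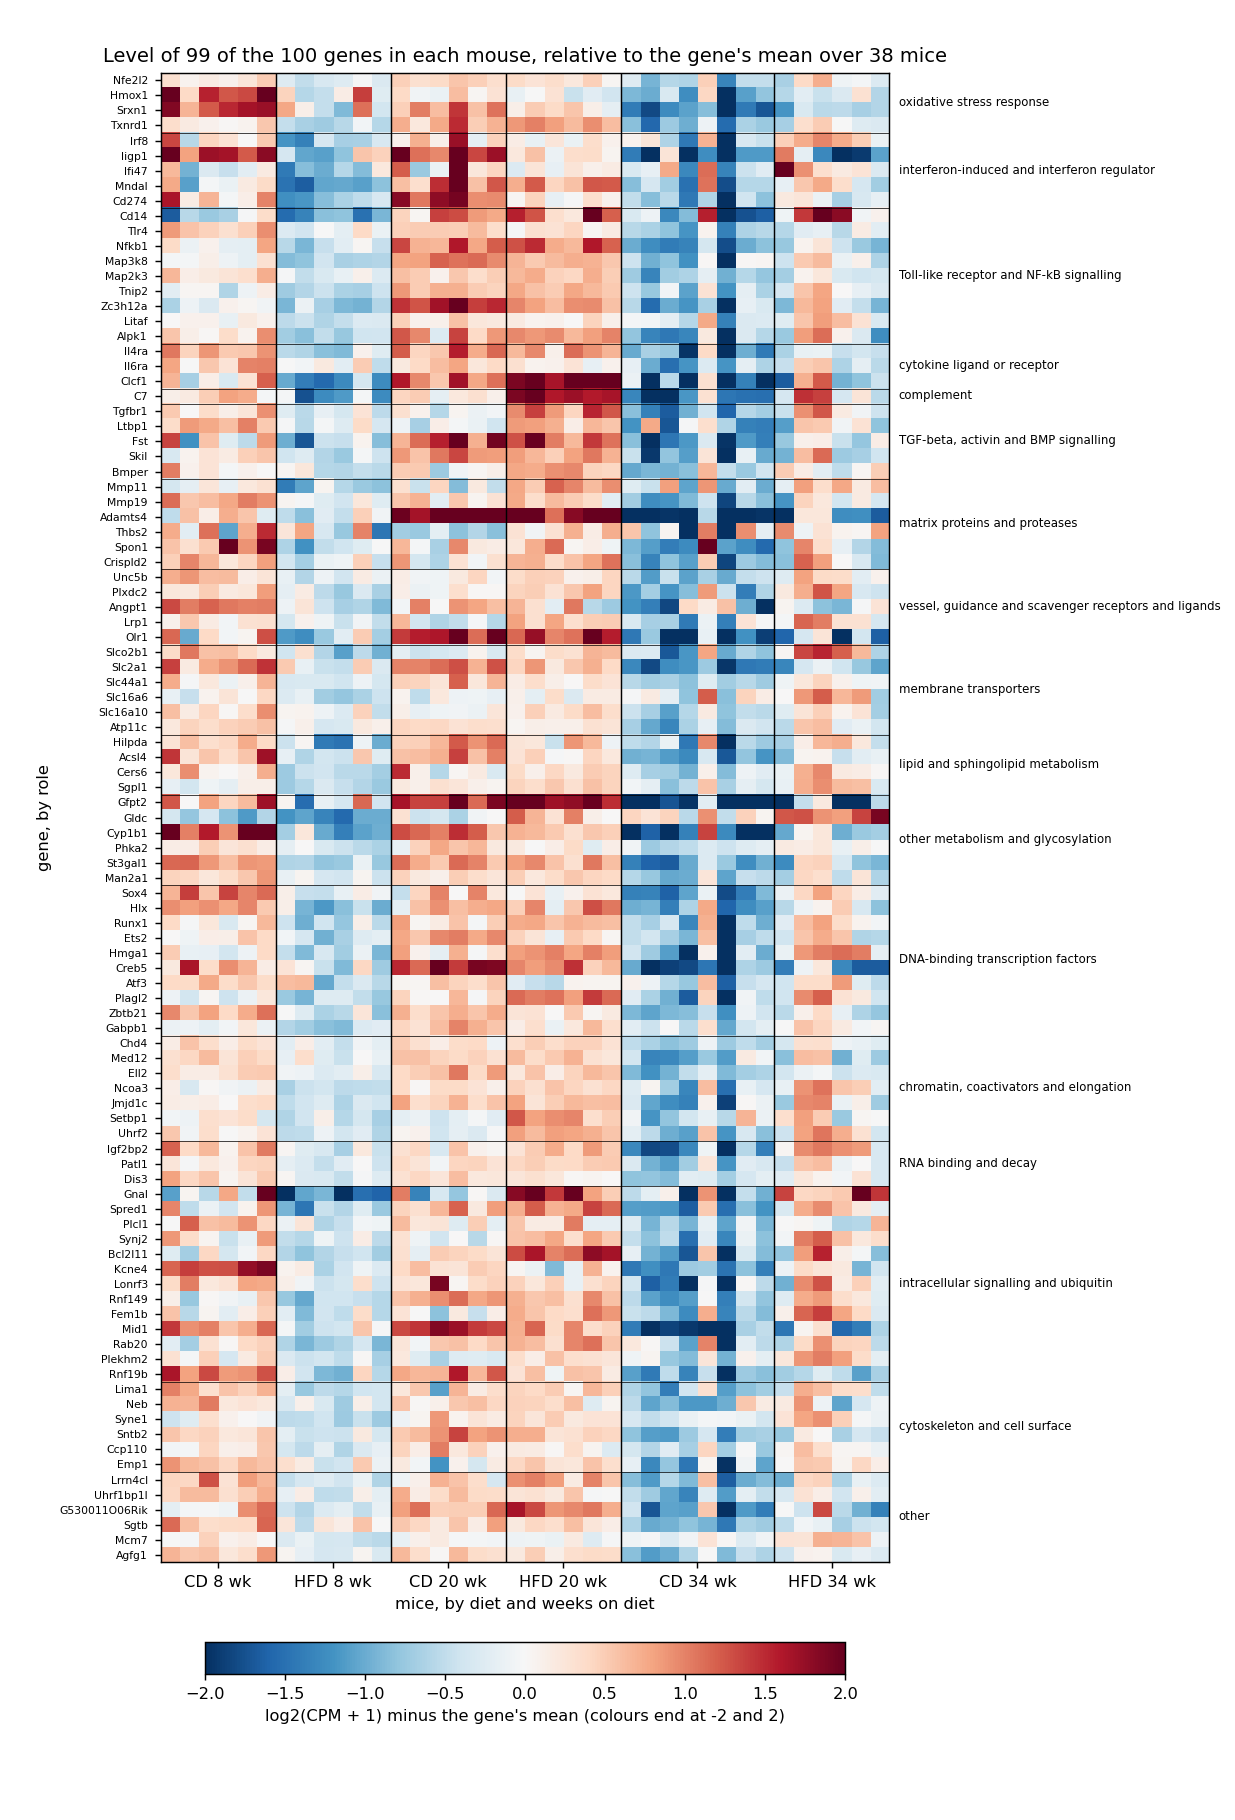
Each row is 1 of 99 of the 100 genes, ordered by role, and each column is 1 of the 38 mice, in the order CD then HFD at 8, 20 and 34 weeks. Colour gives log2(CPM + 1) minus the gene's mean over all mice, and the 8 week HFD and 34 week CD columns are blue for most genes, with CD mouse 5 of 34 weeks as the exception.

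At 8 weeks the differences of the 100 genes ran from -2.44 to -0.45 on the log2 scale, with a median of -0.68, against a median of 0.11 over all genes tested. For 41 genes every HFD mouse was below every CD mouse, a pattern shown by 7.14% of all genes tested. At 34 weeks the differences ran from 0.44 to 1.88 with a median of 0.75, against 0.07 over all genes. Only Slc44a1, Synj2 and Unc5b were higher in every HFD mouse than in every CD mouse at 34 weeks, against 1.47% of all genes tested, and none was lower in every HFD mouse, against 0.986%. Both contrasts were used by the rule. The genes just inside the limit of 100 were Plagl2, Fem1b and Tlr4, with differences of -0.45, -0.45 and -0.70 at 8 weeks and 1.03, 1.23 and 0.44 at 34 weeks. Just outside were Mdn1, Nxpe5 and Slc39a14, with -0.44, -0.44 and -1.72 at 8 weeks and 0.66, 0.46 and 0.44 at 34 weeks.

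The independent question was what HFD did to these genes at 20 weeks. Calls were made in both directions. With limma over all 38 mice and Benjamini-Hochberg adjustment over the 10343 genes, 29 of the 100 genes passed an adjusted p of 0.05, 16 higher (background 38.3%) and 13 lower (18.7%), against 57.0% of all genes tested in either direction. The median difference of the 100 genes was 0.02 on the log2 scale with 51 above 0, and the median of all genes was 0.14. The median standard error was 0.25 for these genes and 0.14 for all genes, and the median absolute difference was 0.35 and 0.36. These errors pool all groups, so the 29 calls rest in part on the spread of the mice that chose the genes. The mean of the 100 genes had an SD of 0.50 in CD and 0.40 in HFD mice at 34 weeks. That SD was 0.15 and 0.08 at 20 weeks and 0.18 and 0.17 at 8 weeks. A fit of the 20 week mice alone leaves out the spread at 8 and 34 weeks. In that fit 27 genes rose and 21 fell, 48 in all, against 65.0% of all genes (42.5% higher and 22.5% lower). With array weights 27 rose and 25 fell, 52 in all, against 73.5% (47.2% higher and 26.3% lower).

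The split depends on the scaling of the libraries. With edgeR's TMM factors the median of all genes at 20 weeks moved from 0.14 to -0.07 and that of the 100 genes from 0.02 to -0.19, with 11 genes higher (26.2% of all genes) and 27 lower (32.5%), or 58.7% of all genes in either direction. The edgeR quasi-likelihood test on whole reads called 10 higher (25.9%) and 30 lower (33.0%), against 58.9% of all genes (6097 genes). DESeq2's median-of-ratios factors gave 12 higher (28.4%) and 24 lower (29.1%), or 57.6% in either direction. In each of these scalings the median of the 100 genes was below that of all genes. Of the 29 calls, 24 were made in the same direction under both scalings. With the mean of the macrophage list as a covariate 2 genes were higher and 19 lower, against 29.6% of all genes in either direction. With 1 mouse of 20 weeks left out at a time, 14 to 19 genes were higher and 4 to 12 lower, the fewest lower without CD mouse 4 or HFD mouse 3. Those fits called 52.0% to 58.1% of all genes in either direction. Every HFD mouse was above every CD mouse at 20 weeks for 12 of the 100 genes, against 26.1% of all genes, and below for 8, against 11.1%.

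**Figure D3:**
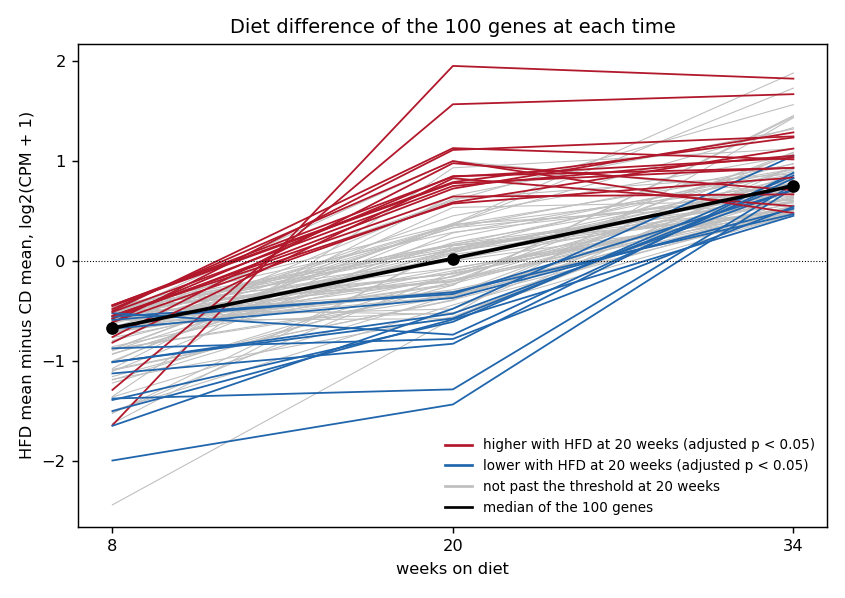
HFD mean minus CD mean of each of the 100 genes on the log2(CPM + 1) scale after 8, 20 and 34 weeks, with the median in black. The 8 and 34 week values are below and above 0 by the choice of the genes, and at 20 weeks 16 genes were called higher (red) and 13 lower (blue), around a median of 0.02.

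Of 4 genes of the oxidative stress response, 1 fell and none rose at 20 weeks, against 18.7% lower and 38.3% higher over all genes. Nfe2l2 encodes NRF2, the transcription factor that turns on antioxidant enzymes, and Hmox1 (heme oxygenase), Srxn1 (sulfiredoxin, which repairs oxidized peroxiredoxins) and Txnrd1 (thioredoxin reductase) are known targets of it. Sequences before their start sites are shown because the motif of NRF2 and of AP-1 can be read in them. RefSeq windows on GRCm38.p6 were at hand for 75 of the 100 genes (100 windows of 300 bases), and the 250 bases before the start site are printed 5′ to 3′ on the strand of the gene, with motif matches in capitals. The motif TGACNNNGC (NRF2) was searched on both strands, and TGANTCA (AP-1) reads the same on both.

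The sequence of Srxn1 is at chr2:152105274-152105523, plus strand, with 2 AP-1 matches that start 102 and 45 bases before the start site.
Srxn1: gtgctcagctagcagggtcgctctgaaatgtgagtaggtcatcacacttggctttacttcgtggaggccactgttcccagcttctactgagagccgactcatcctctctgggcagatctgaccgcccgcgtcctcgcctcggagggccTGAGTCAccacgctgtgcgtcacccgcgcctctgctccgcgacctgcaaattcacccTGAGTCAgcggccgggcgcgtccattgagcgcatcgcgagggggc
The sequence of Txnrd1 is at chr10:82858956-82859205, plus strand, with an NRF2 match on the opposite strand that starts 92 bases before this start site.
Txnrd1: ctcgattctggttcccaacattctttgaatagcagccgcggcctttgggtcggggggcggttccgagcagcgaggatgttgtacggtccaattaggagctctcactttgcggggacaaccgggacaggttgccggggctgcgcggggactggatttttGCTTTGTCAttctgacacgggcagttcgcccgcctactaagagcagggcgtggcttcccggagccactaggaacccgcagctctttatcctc
The sequence of Nfe2l2 is at chr2:75704664-75704913, minus strand, with an NRF2 match that starts 240 bases before the start site.
Nfe2l2: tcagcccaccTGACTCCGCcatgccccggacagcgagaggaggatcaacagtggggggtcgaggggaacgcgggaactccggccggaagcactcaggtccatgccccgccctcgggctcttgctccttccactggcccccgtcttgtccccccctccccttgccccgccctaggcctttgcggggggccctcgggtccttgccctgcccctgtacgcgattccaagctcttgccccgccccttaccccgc

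These matches are a description of the letters. The NRF2 motif was found in 12 of the 75 genes with a window (16.0%) and in 17.4% of the 8287 genes tested that have one. The AP-1 motif was found in 9 of 75 genes, against 6.35% of all genes with a window.

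Srxn1 was 364 to 830 CPM (median 686) in CD and 123 to 492.8 CPM (213) in HFD mice at 8 weeks, and 43.7 to 126 CPM (85.4) and 100 to 185 CPM (154) at 34 weeks. At 20 weeks it was 318 to 616 CPM (406) in CD and 202 to 337 CPM (274) in HFD mice. It fell at 20 weeks by 0.61 ± 0.26 (SE) on the log2 scale with an adjusted p of 0.0436 in limma. HFD mice lay below every CD mouse in 4 of 6 cases at 20 weeks. The call ended when any of 7 single mice was left out, with adjusted p up to 0.116 (without CD mouse 4). Hmox1 had medians of 1080 and 390 CPM in CD and HFD at 8 weeks, 451 and 352 CPM at 20 weeks, and 208 and 311 CPM at 34 weeks. Txnrd1 had medians of 266 and 163, 397 and 435, and 140 and 222 CPM at the same times. Nfe2l2 had medians of 218 and 157, 255 and 236, and 132 and 182 CPM. None of these 3 passed the test at 20 weeks, where the differences were -0.34 ± 0.35 (adjusted p = 0.418), 0.08 ± 0.20 (0.743) and -0.13 ± 0.18 (0.557, limma). Of 17 other NRF2 target genes, 5 (29.4%) had the same order of signs at 8 and 34 weeks, against 18.8% of all genes. Their list was drawn up after the genes were known and holds none of the 100. At 20 weeks 5 of the 17 rose and 4 fell, against 38.3% and 18.7% of all genes. With TMM 3 rose and 5 fell, against 26.2% and 32.5%.

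Of 5 interferon-related genes 2 fell at 20 weeks and none was above 0, against 18.7% lower and 61.0% above 0 over all genes. Iigp1, an interferon-inducible GTPase, was 138 to 458 CPM (median 255) in CD and 36.5 to 117 CPM (53.3) in HFD mice at 8 weeks, without overlap. At 20 weeks it was 154 to 593 CPM (230) in CD and 72.6 to 118 CPM (96.04) in HFD mice, again without overlap. At 34 weeks both diets were low, at 5.84 to 94.1 CPM (31.0) in CD and 15.6 to 163 CPM (34.3) in HFD mice. The fall at 20 weeks was -1.44 ± 0.48 with an adjusted p of 0.0116 in limma. Cd274, which encodes the immune checkpoint ligand PD-L1, was 86.5 to 171 CPM (125) in CD and 40.0 to 61.0 CPM (46.8) in HFD mice at 20 weeks. The diets did not overlap, and the fall was -1.29 ± 0.26 with an adjusted p of 8.56e-05. At 8 weeks Cd274 had medians of 61.1 and 26.3 CPM, and at 34 weeks of 27.0 and 40.6 CPM. Its median in 20 week CD mice was the highest of the 6 groups.

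Irf8, a transcription factor best known from macrophages and other myeloid cells, was 34.1 to 130 CPM (median 65.5) in CD and 19.2 to 40.5 CPM (31.8) in HFD mice at 8 weeks. It was 44.9 to 169 CPM (62.6) and 45.6 to 65.1 CPM (55.0) at 20 weeks, and 8.30 to 82.8 CPM (38.7) and 46.2 to 100 CPM (78.3) at 34 weeks. Its difference at 20 weeks was -0.40 ± 0.36 (adjusted p = 0.347, limma). The window before its start site is shown because 2 matches of the interferon-gamma activated sequence, TTCNNNGAA, which reads the same on both strands, lie in it.

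The sequence of Irf8 is at chr8:120736108-120736357, plus strand, with matches that start 171 and 153 bases before the start site.
Irf8: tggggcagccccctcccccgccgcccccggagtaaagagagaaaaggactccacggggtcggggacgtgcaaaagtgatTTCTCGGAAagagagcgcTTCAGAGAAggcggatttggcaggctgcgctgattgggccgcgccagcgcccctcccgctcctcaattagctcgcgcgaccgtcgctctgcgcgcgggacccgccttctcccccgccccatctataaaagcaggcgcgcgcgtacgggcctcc
The sequence of Slco2b1 is at chr7:99695924-99695952, minus strand, with a match that starts 133 bases before 1 of its start sites.
Slco2b1: tactgagcctTTCCGGGAAtgagtgatca

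This sequence was found in 10 of the 75 genes (13.3%) and in 8.05% of all genes with a window. The interferon-stimulated response element was found in 1 of 75, Mndal, against 3.66%. Ifi47 and Mndal, the other interferon-induced genes here, had 20 week differences of -0.48 ± 0.42 (adjusted p = 0.338) and -0.15 ± 0.34 (0.724, limma). Mndal and Iigp1 belong to families of close copies, so reads shared with a copy could not be told apart. Of 16 other interferon-inducible genes tested, 12 fell and 1 rose at 20 weeks, against 18.7% lower and 38.3% higher over all genes. With TMM 14 fell and 1 rose, against 32.5% and 26.2%. The medians of the 16 were -1.48 at 8, -1.26 at 20 and -0.15 at 34 weeks. Of the 16, 5 (31.2%) had the order of signs of the 100 genes, against 18.8% of all genes.

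**Figure D4:**
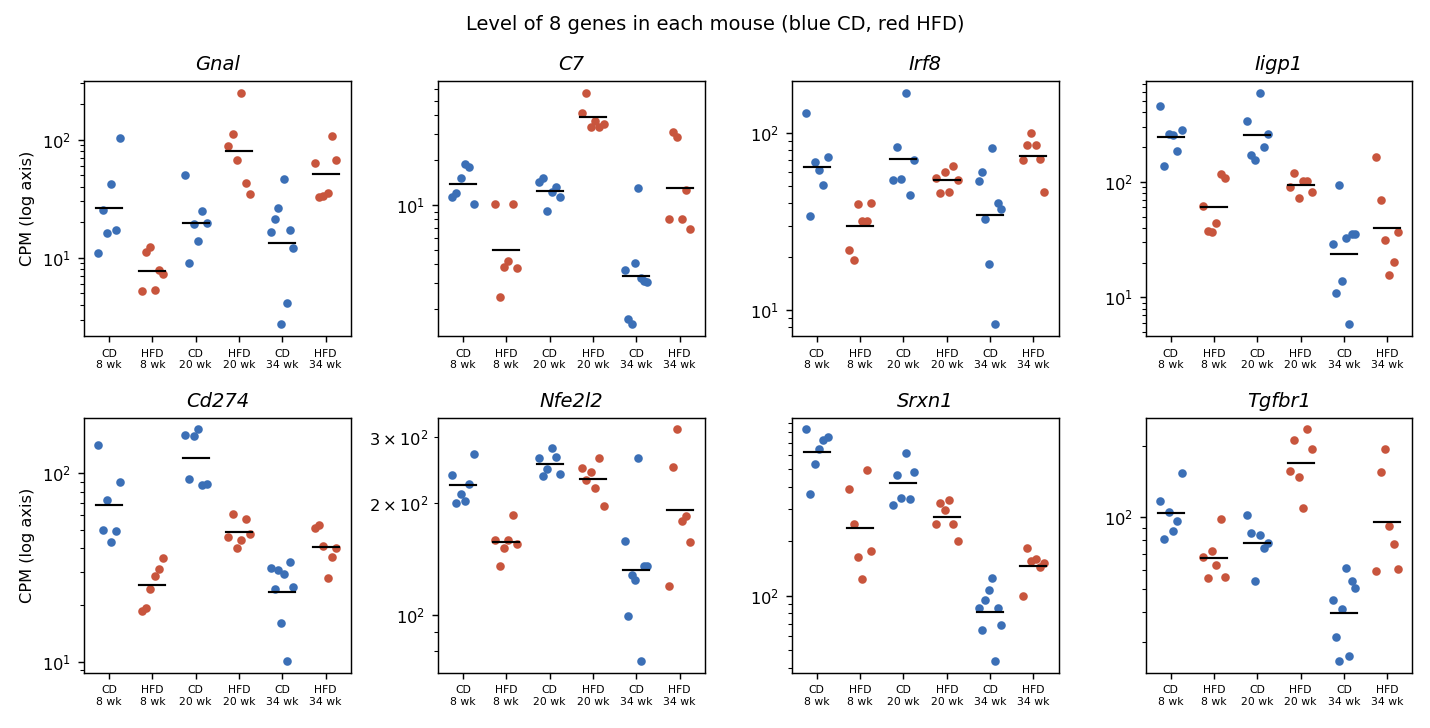
CPM on a log axis of 8 genes in each mouse, blue for CD and red for HFD, with the mean of the log values as a black line. Iigp1 and Cd274 of the 20 week HFD mice sit below all 20 week CD mice, C7 and Tgfbr1 of the 20 week HFD mice above them, and Gnal of the HFD mice is low at 8 weeks and high at 20 and 34 weeks.

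Among 9 Toll-like receptor and NF-kB genes 1 fell and none rose at 20 weeks, against 18.7% lower and 38.3% higher over all genes. Tlr4, the receptor for lipopolysaccharide, was 49.2 to 75.8 CPM (median 57.0) in CD and 29.9 to 52.1 CPM (35.0) in HFD mice at 8 weeks, and 14.7 to 41.3 CPM (25.2) and 26.04 to 44.3 CPM (33.7) at 34 weeks. In 20 week mice it was 50.6 to 61.6 CPM (56.1) and 38.9 to 53.6 CPM (46.1), a difference of -0.29 ± 0.16 with an adjusted p of 0.117 in limma. That call changed with TMM scaling, where the difference was -0.51 with an adjusted p of 0.00349, and with the 20 week mice fitted alone (0.0068). Cd14, its co-receptor and a macrophage marker, was 71.7 to 299 CPM (151) in CD and 79.0 to 132 CPM (106) in HFD mice at 8 weeks. It was 237 to 597 CPM (403) and 266 to 1176 CPM (539) at 20 weeks, a difference of 0.36 ± 0.47 (adjusted p = 0.537). At 34 weeks 7 of the 8 CD mice lay between 43.7 and 216 CPM and CD mouse 5 at 678 CPM, while HFD mice ran from 216 to 1010 CPM. Zc3h12a, an RNase that degrades cytokine mRNAs, fell at 20 weeks by 0.74 ± 0.29 (adjusted p = 0.0286), from 253 to 440 CPM (294) in CD to 159 to 207 CPM (193) in HFD mice, without overlap. Nfkb1, which encodes the p105 precursor of NF-kB p50, had medians of 102 and 74.5, 208 and 243, and 47.1 and 69.1 CPM at the 3 times. Alpk1, a kinase that senses bacterial sugars, had medians of 12.5 and 6.56, 20.45 and 20.3, and 4.62 and 9.76 CPM. Of 21 other genes of the pathway 10 (47.6%) had the order of signs of the 100 genes, against 18.8% of all genes. Among them were Nfkbia and Tnfaip3, which encode inhibitors of NF-kB. Others, such as Tnf, Il1b and Icam1, were higher with HFD at all 3 times. The median differences of the 21 genes were -0.09 at 8, 0.25 at 20 and 0.75 at 34 weeks. At 20 weeks 7 rose and 4 fell, against 38.3% and 18.7% of all genes. With TMM 7 rose and 5 fell, against 26.2% and 32.5%.

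Of 5 TGF-beta, activin and BMP genes 3 rose and none fell at 20 weeks, against 38.3% higher and 18.7% lower over all genes, and of the 3 only Tgfbr1 was called under both TMM and median-of-ratios scaling. Tgfbr1, the type I TGF-beta receptor, was 54.1 to 102 CPM (median 81.2) in CD and 109 to 234 CPM (175) in HFD mice at 20 weeks, without overlap. It rose by 1.11 ± 0.25 with an adjusted p of 0.000298. At 8 weeks it was 81.4 to 153 CPM (100.7) and 55.5 to 98.4 CPM (65.7), and at 34 weeks 24.9 to 61.1 CPM (43.2) and 59.5 to 193 CPM (84.7). Ltbp1, which binds latent TGF-beta in the matrix, rose at 20 weeks by 0.82 ± 0.31 (adjusted p = 0.0234), and Bmper, a modulator of BMP signals, by 0.64 ± 0.24 (0.0206). Both were called in 6 of 10 alternatives other than leaving out a mouse, with adjusted p up to 0.517 for Ltbp1 and 0.15 for Bmper. Progenitor and fibroblast markers were higher with HFD in the same mice, and their part in these rises was not tested. Follistatin (Fst), which binds activin, and Skil, a repressor of SMAD factors, had differences of -0.16 ± 0.37 (0.733) and -0.16 ± 0.33 (0.694). Of 21 other genes of the pathway, 6 (28.6%) had the order of signs of the 100 genes, against 18.8% of all genes. At 20 weeks 7 of the 21 rose and 2 fell, against 38.3% and 18.7% of all genes. With TMM 5 rose and 3 fell, against 26.2% and 32.5%. The motif CAGACA, which SMAD factors bind, was found in 23 of 75 genes (30.7%), Tgfbr1 and Ltbp1 among them, against 18.3% of all genes with a window. Several motifs were searched, and their shares were not tested.

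Of 2 complement genes 1 rose at 20 weeks. So did 1 of 6 matrix genes and 1 of 5 vessel, guidance and scavenger genes. None of these genes fell, against 38.3% higher and 18.7% lower over all genes. Fibroblast markers were higher in the same HFD mice, and their part was not tested. C7, a component of the complement membrane attack complex, was 9.12 to 15.2 CPM (median 12.8) in CD and 33.4 to 56.7 CPM (35.6) in HFD mice at 20 weeks. It rose by 1.56 ± 0.34 with an adjusted p of 0.00021, the second largest rise of the 100 genes. At 8 weeks it was 10.1 to 18.9 CPM (13.5) in CD and 2.42 to 10.1 CPM (4.01) in HFD mice, and at 34 weeks 1.58 to 13.1 CPM (3.15) and 6.85 to 30.7 CPM (10.4). The signs at 8 and 34 weeks are set by the choice of the genes, so only the rise of C7 at 20 weeks was tested. The matrix protease Mmp11 rose by 0.97 ± 0.29 (0.00432), from 1.60 to 5.37 CPM in CD to 5.76 to 9.73 CPM in HFD mice. Lrp1, a large endocytic receptor, rose by 0.77 ± 0.25 (0.0087). The proteases Adamts4 and Mmp19, thrombospondin 2 (Thbs2) and the oxidized LDL receptor Olr1 did not pass, with 20 week differences of -0.54, 0.08, 1.00 and -0.36. Adamts4 had medians of 40.0 and 24.1 CPM at 8 weeks, 184 and 133 CPM at 20 weeks and 5.63 and 12.6 CPM at 34 weeks.

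Signalling genes held the largest rise of the 29 calls. Gnal, which encodes the G protein alpha subunit olf that stimulates adenylyl cyclase and is the gene that led the rule, was 11.02 to 104 CPM (median 21.2) in CD and 5.21 to 12.4 CPM (7.62) in HFD mice at 8 weeks. It was 9.07 to 50.5 CPM (19.6) and 34.8 to 250.4 CPM (78.0) at 20 weeks, and 2.73 to 46.5 CPM (16.9) and 32.8 to 108 CPM (49.6) at 34 weeks. The rise at 20 weeks was 1.95 ± 0.52 with an adjusted p of 0.00199, and 4 of the 6 HFD mice lay above every CD mouse. Bcl2l11, which encodes the apoptosis activator BIM, was 32.1 to 52.7 CPM (47.0) in CD and 73.6 to 128 CPM (104) in HFD mice at 20 weeks and rose by 1.12 ± 0.34 (adjusted p = 0.00595). Mid1, a ubiquitin ligase of microtubules, fell by 0.83 ± 0.31 (0.0202), from 18.5 to 27.2 CPM (19.7) to 8.90 to 16.4 CPM (10.8), without overlap. Kcne4, a subunit of potassium channels, fell by 0.48 ± 0.21 (0.0488), a call that was made in 1 of the 12 fits that left out a mouse and in 5 of 10 other alternatives, with adjusted p up to 0.189 (without HFD mouse 3). Fem1b, a subunit of ubiquitin ligases, rose by 0.78 ± 0.28 (0.0171). The call of Fem1b ended with TMM (0.57, 0.0578) and without CD mouse 3 (0.0593), and the difference was -0.009 with the macrophage covariate. Among 13 genes of this role 5 rose and 3 fell, shares near those of all genes (38.3% and 18.7%). Kcne4 and Mid1 were close to the floor in 34 week CD mice, with medians of 1.18 and 1.10 CPM, where 1 read is worth 0.0646 to 0.108 CPM over all mice.

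**Figure D5:**
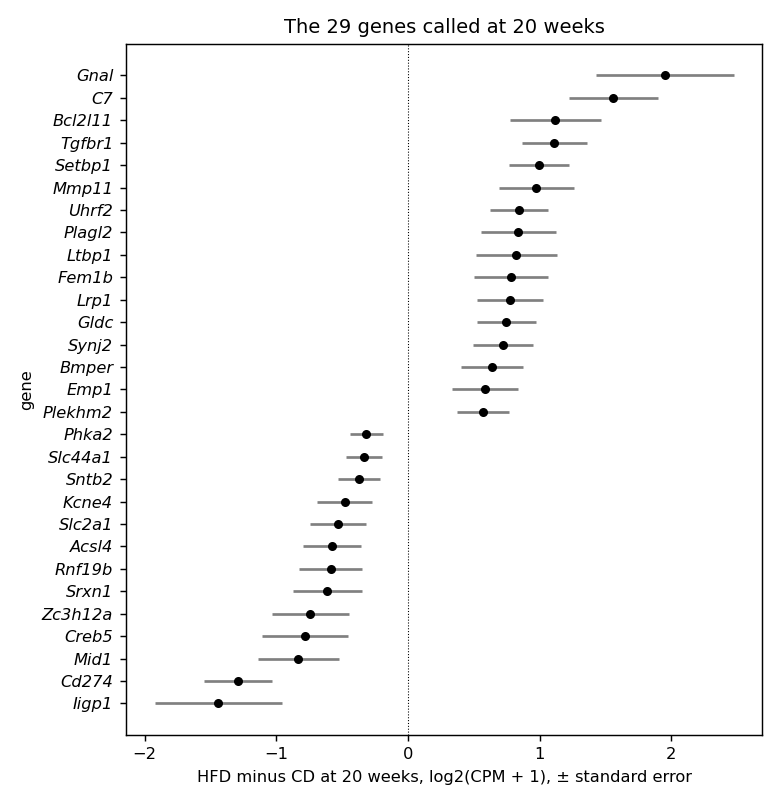
Difference between HFD and CD at 20 weeks, in log2(CPM + 1) with its standard error from limma, for the 29 of the 100 genes past an adjusted p of 0.05. The 16 rises run from 0.57 (Plekhm2) to 1.95 (Gnal) and the 13 falls from -0.32 (Phka2) to -1.44 (Iigp1).

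Of 10 DNA-binding transcription factors 1 rose and 1 fell at 20 weeks, and of 7 chromatin, coactivator and elongation genes 2 rose and none fell, against 38.3% higher and 18.7% lower over all genes. Plagl2, a zinc finger factor, rose by 0.84 ± 0.29 (adjusted p = 0.0132). Creb5, a CRE-binding factor, fell by 0.78 ± 0.33 (0.0411), from 11.6 to 25.6 CPM (median 17.7) in CD to 6.95 to 14.7 CPM (9.63) in HFD mice. The call of Creb5 was made in 4 of the 12 fits that left out a mouse and in 6 of 10 other alternatives, with adjusted p up to 0.202. In 34 week mice it was 0.108 to 2.76 CPM in CD and 0.815 to 5.71 CPM in HFD, so that few reads stand behind those values. The window before a start site of Creb5 and that of Gfpt2 hold the AP-1 motif, as in Srxn1.

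The sequence of Creb5 is at chr6:53573318-53573346, plus strand, 45 bases before the start site.
Creb5: tgggaaggataTGACTCActcaagctagt
The sequence of Gfpt2 is at chr11:49793921-49793949, plus strand, 223 bases before the start site.
Gfpt2: tctaatatgacTGACTCAaaattccaact

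Sox4 was 24.99 to 45.0 CPM (median 35.8) and 11.8 to 18.6 CPM (15.5) at 8 weeks, 21.2 and 18.6 CPM in the median at 20 weeks, and 4.15 to 15.1 CPM (6.00) and 14.2 to 29.9 CPM (20.7) at 34 weeks. Its 20 week difference was -0.25 ± 0.23 (adjusted p = 0.367). Atf3, a stress-induced factor, had medians of 468 and 274, 471 and 337, and 270 and 382 CPM and a 20 week difference of -0.52 ± 0.27 (0.0984), which passed with TMM (-0.74, 0.017). Among coactivators and chromatin proteins, Setbp1 rose by 0.995 ± 0.226 (0.000372), from 3.09 to 4.31 CPM to 5.91 to 11.9 CPM, and Uhrf2, a ubiquitin ligase that binds modified DNA, by 0.84 ± 0.22 (0.00164). Chd4 of the NuRD complex, Med12 of Mediator, the elongation factor Ell2 and the coactivator Ncoa3 had 20 week differences of 0.13, -0.0041, -0.20 and 0.16, none past the threshold.

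Of 78 chromatin regulators 52 (66.7%) had the order of signs of the 100 genes, against 18.8% of all genes. Chd4 and Ncoa3, which are among the 100 genes, have it by the choice of the genes. The order uses the contrasts of the rule, and the lists were chosen with earlier results known. These shares are thus a description and were not tested. Their medians were -0.31 at 8 and 0.19 at 34 weeks, against -0.68 and 0.75 for the 100 genes. At 20 weeks 19 of the 78 rose and 5 fell, against 38.3% and 18.7% of all genes. The split turned to 11 and 20 with TMM, against 26.2% and 32.5%. The order of signs was shown by 14 of 28 Mediator and RNA polymerase II genes, among them Med12 and Ell2 of the 100 genes. It was shown by 20 of 34 genes of mRNA decay (58.8%). Among the splicing factor families that the rule left out it was shown by 40 of 63 genes tested (63.5%). None of those reached the limit, Sf3a1 coming closest, with a smaller difference of 0.38. The order was shown by 3 of 26 insulin and growth signalling genes (11.5%) and 2 of 17 clock genes (11.8%). The immediate early and stress list, which holds Atf3, had it in 4 of 27 (14.8%).

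Among 19 genes of transport, metabolism and cytokines, 1 rose and 4 fell at 20 weeks, against 38.3% higher and 18.7% lower over all genes. Slco2b1, an organic anion transporter, was 155 to 284 CPM (median 192) and 63.4 to 170 CPM (91.9) at 8 weeks and 41.2 to 234 CPM (83.3) and 88.1 to 391 CPM (261) at 34 weeks. In 20 week mice it was 100 to 143 CPM (111) in CD and 141 to 219 CPM (175) in HFD mice, a difference of 0.65 ± 0.30 (adjusted p = 0.0653), which passed with the 20 week mice fitted alone (0.000281). Slc2a1, which encodes the glucose transporter GLUT1, fell at 20 weeks by 0.53 ± 0.21 (0.0344), with medians of 124 CPM in CD and 83.6 CPM in HFD mice. Acsl4, an acyl-CoA synthetase of polyunsaturated fatty acids, fell by 0.58 ± 0.22 (0.0266), with medians of 95.2 and 70.7 CPM and no overlap. Gfpt2, an enzyme at the entry of the hexosamine pathway, had medians of 72.2 and 36.6, 126 and 162, and 9.20 and 19.5 CPM, and its 20 week difference was 0.35 ± 0.45 (0.513). Cyp1b1, a cytochrome P450, had the lowest of the 8 week differences (-2.44), with 38.6 to 94.6 CPM (73.1) in CD and 7.24 to 23.6 CPM (9.64) in HFD mice. At 20 weeks it had medians of 47.0 and 29.6 CPM and a difference of -0.58 ± 0.38 (0.197). At 34 weeks it was 3.16 to 52.9 CPM (4.98) in CD mice, mouse 5 being the highest, and 9.43 to 23.8 CPM (11.9) in HFD mice. Clcf1, a cytokine of the interleukin 6 family, had medians of 11.6 and 3.53, 21.3 and 43.5, and 2.49 and 6.17 CPM, and a 20 week difference of 0.93 ± 0.45 (0.0746), which passed with the 20 week mice fitted alone (0.00105). The receptor genes Il4ra and Il6ra had 20 week differences of -0.21 and -0.33, neither past the threshold. Hilpda, a lipid droplet protein induced by hypoxia, had one of -0.56 ± 0.34 (0.157). Of 17 other hypoxia-inducible genes 4 (23.5%) had the order of signs of the 100 genes, against 18.8% of all genes. At 20 weeks 6 of the 17 rose and 8 fell, against 38.3% and 18.7% of all genes. With TMM 5 rose and 9 fell, against 26.2% and 32.5%.

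The other roles held fewer calls. Of 3 genes of RNA binding and decay none was called at 20 weeks, against 57.0% of all genes. Igf2bp2, which encodes an mRNA-binding protein, had the largest difference at 34 weeks (1.88), with 5.93 to 28.1 CPM (median 11.3) in CD and 23.7 to 63.1 CPM (56.1) in HFD mice. Its difference at 20 weeks was 0.37 ± 0.26 (adjusted p = 0.23, limma). Of 6 genes of the cytoskeleton and cell surface 1 rose and 1 fell, and of 6 genes with no shared role none was called. Over all genes 38.3% rose and 18.7% fell.

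The gene models of the 100 were longer in the median than those of all genes tested. In GENCODE vM21 the gene span, introns included, had a median of 47744 bases in 99 of them that matched, against 25545 bases in 10167 genes tested. The principal transcript had a median of 4109 bases against 3078. A transcript with a retained intron was annotated for 52 of 99 (52.5%) against 62.2%. By RefSeq 99 of the 100 encode proteins, and they lie on 19 chromosomes, with at most 10 genes on any of them. Windows before the start site had a median GC content of 63.5% against 61.0%. The ETS motif CCGGAAG was found in 7 of 75 genes (9.33%) against 20.8% of all genes with a window.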

How the data were processed

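Adipocytes of PGWAT were profiled by stranded mRNA sequencing. The authors aligned reads with STAR, counted them on GENCODE genes with featureCounts (Subread 1.5.1) on mm10, and deposited CPM, per their methods and processing notes, with 3 technical replicates merged per mouse. TMM scaling is stated in the methods, but every deposited CPM column sums to 1000000. Dividing each column by the worth of 1 read gave whole reads for 100% of values in every mouse (within 0.1 of a read), used for depth and for the TMM, median-of-ratios and edgeR alternatives. The precision of low genes is set by this depth.

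Groups came from the labels, with 38 mice as the samples, and p-values measure the spread between mice. Values were log2(CPM + 1), with genes of mean above 2 kept (10343). Limma 3.58.1 (R 4.3.3, trend, 6 group means, 32 residual degrees of freedom) tested HFD against CD at 20 weeks with Benjamini-Hochberg adjustment, called at 0.05. edgeR 4.0.16 and DESeq2 1.42.0 served the alternatives. Tested on simulated data with 200 genes changed 2-fold, limma called 189 of them and 9 unchanged genes. The simulation gave every gene the same dispersion and changed far fewer genes than were called in the data. Its rates thus check the code and do not carry over to the 100 genes. The members and gene lists were chosen with earlier results of these data known. Named genes were the leading 10 by the rule, 3 either side of the limit, the 5 largest rises and falls called at 20 weeks, up to 3 per gene list, and those with a printed sequence; others are examples. Alternatives changed the pseudocount, filter, scaling, test, mice, weights, block and a macrophage covariate. Those for the order of the group levels and the medians at 8 and 34 weeks were chosen after seeing the data. The values of 1 of the 100 genes are not reported here on their own.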

Additional observations from a re-analysis of the deposited data

Results flagged for a closer look

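In the 34 week CD group, mouse 5 lay far from the others for C7 and for Cyp1b1. C7 was 3.82 on the log2(CPM + 1) scale in that mouse, and the next highest CD mouse was at 2.35. Cyp1b1 was 5.75 in the same mouse, and the next highest was at 3.12. These were 2 of 66 combinations of gene and group examined, and chance sets apart about 1 in 20 groups. The macrophage markers of mouse 5 summed to 12689 CPM, the highest of the CD mice, and their part in these values was not tested.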

How the results depend on the processing

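At 20 weeks, 29 of the 100 genes were called, 16 higher and 13 lower, against 57.0% of all genes, with a median of 0.02. The numbers called were 48 with the 20 week mice alone (27 higher, 21 lower) and 52 with array weights (27 and 25). Over all genes those fits called 65.0% and 73.5%. Without a filter on low values 15 were higher and 5 lower, against 35.7% of all genes. That fit tested more genes. TMM factors gave 27 lower and a median of -0.19, median-of-ratios factors 24 and -0.15, and edgeR's quasi-likelihood test 10 higher, 30 lower and a median of -0.20. Over all genes these called 58.7%, 57.6% and 58.9% in turn. With the macrophage list as a covariate 2 were higher and 19 lower, against 29.6% of all genes, and the median was -0.33. In that fit Alpk1 turned to -0.86 (adjusted p = 0.0433, limma) and Fem1b to -0.009 (0.984). The cause of these shifts was not tested. Mouse numbers do not pair the mice, since deviations of same-numbered mice correlated with mixed sign (-0.23 to 0.30 at 20 weeks). The fit with the replicate block gave 18 higher and 7 lower, against 57.1% of all genes. Leaving out each 20 week mouse gave 19 to 31 called, against 52.0% to 58.1% of all genes. Of these, 14 to 19 were higher and 4 to 12 lower, with medians of -0.03 to 0.05. The lower count was 8, 4 and 5 without CD mice 3, 4 and 6 and 7, 4 and 6 without HFD mice 1, 3 and 6, and 19 were called without HFD mouse 3. Of the 29 calls, 15 were made with each mouse left out in turn, and C7, Cd274 and Setbp1 were called under every alternative. The rule kept 78 to 100 of the 100 genes over its other settings and 85 to 96 with a mouse left out. The 34 week CD mice were the lowest group for 75 to 84 genes with a 34 week mouse left out. Depth limits genes near 1 CPM, such as Creb5 and Mid1 at 34 weeks.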
